A study of Mus musculus with 24 samples.

Results

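Cell cycle transcripts were followed in P19, a tumour-derived mouse cell line of embryonal carcinoma type, through a list of 38 genes: cyclins, cyclin-dependent kinases (CDKs) and their inhibitors, Myc genes, and genes of DNA replication and mitosis. Members were found by symbol, each through the brightest probe set annotated to that gene alone, and 37 of the 38 had such a probe set, out of 19938 genes measured. Ccnb1, the main mitotic B-type cyclin, had none and is not analysed here. By role, the measured genes were 12 G1 cyclins, kinases, inhibitors and Myc genes, 12 replication genes and 13 mitosis genes.

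The data were 24 Affymetrix Mouse Gene 1.0 ST arrays of P19 cells in monolayer on gelatine-coated plates, read as log2 intensities. EtOH (ethanol), the vehicle, had 4 arrays, which carry no time label. ATRA (all-trans retinoic acid, which activates all retinoic acid receptors) at 1 µM, BMS753 (an agonist of the receptor RARα) at 1 µM, BMS641 (RARβ) at 0.1 µM and BMS961 (RARγ) at 0.1 µM each had 1 array at 2, 6, 24, 48 and 72 h. The groups share the cell line and the plates, with no genetic change labelled. The labels do not say whether arrays came from separate cultures, so the spread between arrays may be technical. P-values measure this spread together with differences between agents in their change over time. P19 is 1 cell line, which retinoic acid is known to push towards differentiation. Every agent is set against the same 4 EtOH arrays, so their changes share that baseline. Values below are log2 differences from the EtOH mean, in which 1 unit is a doubling. Early means the 2 and 6 h arrays of an agent and late its 24, 48 and 72 h arrays, which stand in for replicates. A gene is called where limma's moderated test gives a Benjamini-Hochberg adjusted p under 0.05 over all 19938 genes.

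Cells pass from G1 into S phase when D-type cyclins with CDK4 or CDK6, and then E-type cyclins with CDK2, phosphorylate the retinoblastoma protein and release E2F factors. E2F factors switch on genes of DNA replication, and the proteins MYC and MYCN push cells in the same direction, while CDK inhibitors hold them back. Genes of mitosis peak later, in G2 and M, under control of complexes that bind CCAAT boxes and cell cycle genes homology regions (CHR) in their promoters. Embryonal carcinoma cells divide fast with a short G1, and retinoic acid is known to slow their growth as they differentiate.

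Promoters were looked at because the replication and mitosis genes are textbook targets of such elements, and the sequences below set genes that fell late with ATRA beside ones that were not called or rose. RefSeq promoters (mouse build GRCm38.p6) were found for 31 of the 38 genes. In the 150 bases before the start site, both strands were searched for CCAAT and for the Myc E-box, CACGTG. The CHR was searched as TTTGAA, with a second spelling TTCGAA, and E2F sites as TTTCCCGC, TTTGGCGC, TTTCGCGC or TTTGCCGC. A CCAAT box stood in 11 of 12 mitosis promoters and 7 of 11 replication promoters, but in 2 of 8 of the G1 and Myc group, against 24.5% of all 32851 promoter windows of that length. The CHR stood in 5 of 12 mitosis promoters, against 9.70% of all windows. An E2F spelling stood in 5 of the 31, against 1.24%, and the E-box in 2 of the 31, against 4.30%. CCAAT did not separate the mitosis genes by their response: 4 of the 5 that fell with ATRA held it, and so did 5 of the 5 that were not called. A match is a description of these letters, and their use by a factor was not measured.

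Of the mitosis genes, 3 that fell late with ATRA are Bub1 at chr2:127831860-127832009 on the minus strand, Bub1b at chr2:118598061-118598210 on the plus strand and Kif11 at chr19:37376232-37376381 on the plus strand. Beside them, 3 that were not called are Cdk1 at chr10:69352913-69353062 on the minus strand, Top2a at chr11:99024190-99024339 on the minus strand and Ccnb2 at chr9:70421555-70421704 on the minus strand. Each run is written 5′ to 3′ on the gene's strand and ends at the base before the start, with CCAAT and CHR matches of either strand in capitals.
Bub1: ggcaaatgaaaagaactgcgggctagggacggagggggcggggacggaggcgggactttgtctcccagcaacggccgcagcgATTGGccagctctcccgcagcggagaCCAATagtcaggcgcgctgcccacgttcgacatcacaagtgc
Bub1b: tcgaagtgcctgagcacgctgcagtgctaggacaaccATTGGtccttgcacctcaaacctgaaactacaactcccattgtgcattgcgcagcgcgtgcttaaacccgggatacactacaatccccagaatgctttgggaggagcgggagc
Kif11: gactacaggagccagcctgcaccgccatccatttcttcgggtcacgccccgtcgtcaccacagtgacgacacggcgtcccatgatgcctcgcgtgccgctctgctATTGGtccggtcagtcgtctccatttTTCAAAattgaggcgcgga
Cdk1: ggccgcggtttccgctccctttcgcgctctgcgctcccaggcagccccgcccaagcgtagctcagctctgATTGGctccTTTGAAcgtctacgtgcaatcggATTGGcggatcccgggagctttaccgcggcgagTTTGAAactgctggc
Top2a: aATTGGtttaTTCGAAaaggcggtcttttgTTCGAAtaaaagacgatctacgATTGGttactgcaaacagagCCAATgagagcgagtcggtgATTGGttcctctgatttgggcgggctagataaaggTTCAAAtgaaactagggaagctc
Ccnb2: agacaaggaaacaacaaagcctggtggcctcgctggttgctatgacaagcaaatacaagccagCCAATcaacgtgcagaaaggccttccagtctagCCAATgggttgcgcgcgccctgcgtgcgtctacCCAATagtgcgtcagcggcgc
Of the genes printed, those that fell carry 1 or 2 CCAAT matches and those not called carry 2 to 4. Other mitosis genes do not keep this split. Birc5 and Aurka, which fell, hold none and 2, and Plk1 and Cdc20, not called, hold 1 and 2. The CHR stands in Kif11, Cdk1 and Top2a here, and over the group in 1 of the 5 that fell and 3 of the 5 not called.

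A pair of replication genes moved opposite ways late with ATRA, Mcm6 down and Rrm2 up. They are Mcm6 at chr1:128359706-128359855 on the minus strand and Rrm2 at chr12:24708104-24708253 on the plus strand, with CCAAT and E2F matches in capitals.
Mcm6: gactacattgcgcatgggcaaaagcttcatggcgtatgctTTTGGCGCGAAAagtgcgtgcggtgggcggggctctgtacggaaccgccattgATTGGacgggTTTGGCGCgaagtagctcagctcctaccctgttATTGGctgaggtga
Rrm2: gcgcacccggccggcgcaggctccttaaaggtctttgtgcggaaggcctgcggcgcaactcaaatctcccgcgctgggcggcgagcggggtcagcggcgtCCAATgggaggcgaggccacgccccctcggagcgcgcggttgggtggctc
Mcm6 holds E2F spellings and CCAAT, and Rrm2 holds 1 CCAAT and none of the E2F spellings searched. Over the replication promoters an E2F spelling stood in 2 of the 3 genes that fell, 0 of the 3 that rose and 1 of the 5 not called. Mcm3, with the largest fall of the group, holds none. A link to the response was not tested, and the calls of Mcm6 and Rrm2 were lost when some arrays were left out, as given below.

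**Figure D1:**
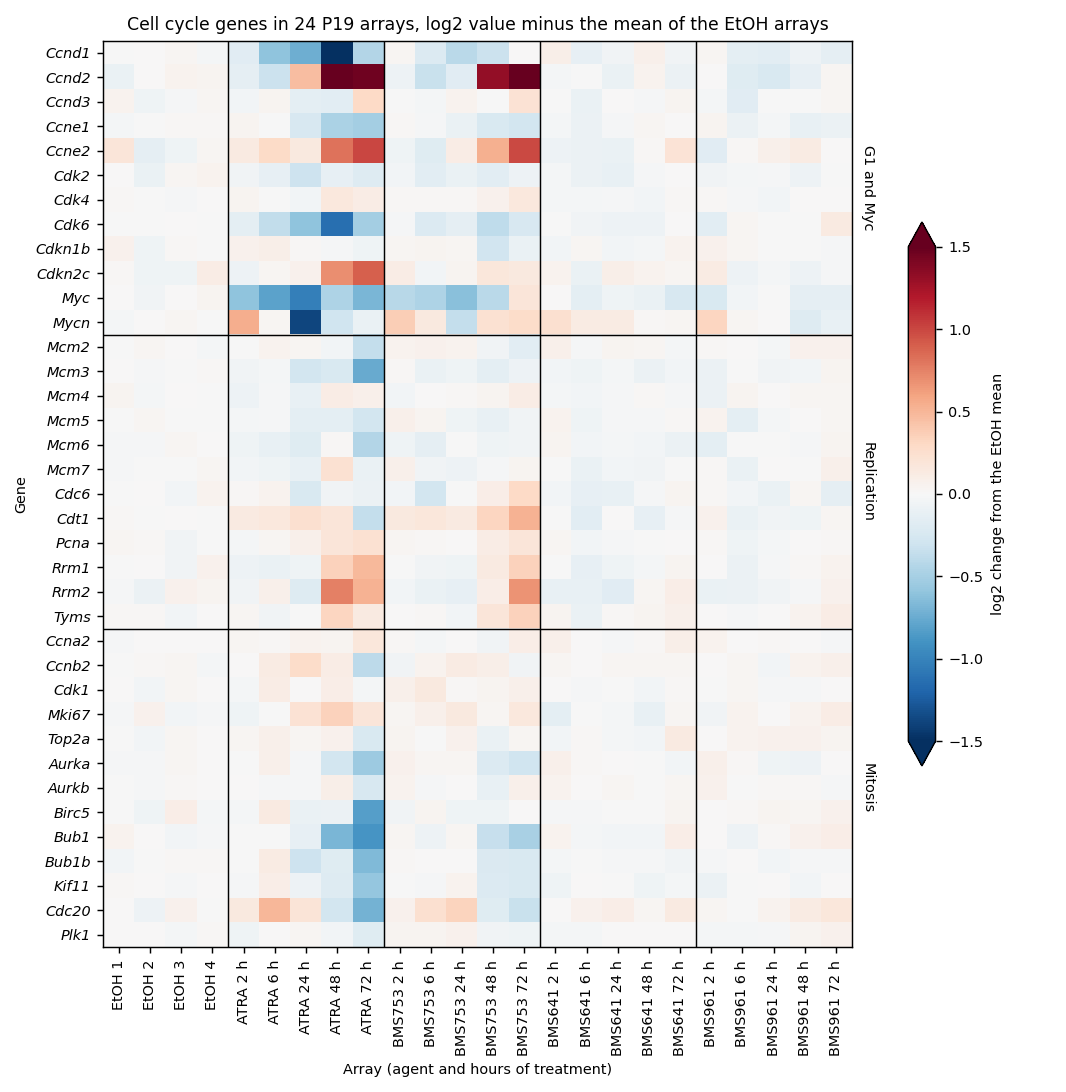
Each row is 1 of the 37 measured cell cycle genes, grouped as G1 and Myc, replication and mitosis, and each column is 1 of the 24 arrays; colour is the log2 value minus the mean of the 4 EtOH arrays, cut at 1.5 each way. Ccnd2 is the strongest value (2.18 at 48 h of ATRA), Myc is already low at 2 and 6 h of ATRA (-0.60 and -0.80), and the 10 columns of the 0.1 µM agents stay pale (-0.24 to 0.32).

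The largest changes late with ATRA were in G1 and Myc genes, and in both directions. Of 37 members, 22 were called (8 higher, 14 lower), which is 59.5%, where 36.9% of all 19938 genes were called (17.9% higher and 19% lower). Apart from Cdkn2c (EtOH level 4.46), the members had EtOH levels from 8.56 (Cdc6) up, above the array medians of 6.50 to 6.68. The share over genes of like brightness was not tested. The members' median change was -0.06, against 0.03 over all genes. By role, 9 of 12 G1 and Myc genes were called (3 higher, 6 lower), 6 of 12 replication genes (3 higher, 3 lower) and 7 of 13 mitosis genes (2 higher, 5 lower). A bulk array cannot tell fewer cells of a cycle phase or a type from less RNA per cell. The count of 22 rests on the spread shared by all agents: fitted on the ATRA and EtOH arrays alone with no time term, 5 members were called (13.5%, against 11.4% of all genes; Ccnd2, Ccne1, Cdk6, Myc and Mki67), and the other 17 had the same direction with adjusted p over 0.05.

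The D-type cyclins, which start the G1 program with CDK4 or CDK6, parted ways. Ccnd1 had values of -0.73, -1.63 and -0.44 at 24, 48 and 72 h of ATRA, all below the EtOH arrays (-0.03 to 0.03). It fell by 0.93 ± 0.17 (SE, as for each ± below, n = 3 and 4, limma adjusted p = 0.000535). Its lowest array was at 48 h, and without the 48 h arrays its change was -0.58 (adjusted p = 0.000673). Each SE and 95% interval uses the spread of the fit to all 24 arrays, the 0.1 µM ones included. They are therefore not the spread of the 3 and 4 arrays compared. Ccnd2 had values of 0.46, 2.18 and 1.46, all above the EtOH arrays (-0.10 to 0.06), and rose by 1.37 ± 0.27, which is 2.58-fold (adjusted p = 0.00105). Ccnd2 thus had the largest rise of the 37, and Ccnd1 the largest fall, and they moved in opposite directions in the same arrays. Ccnd3 was -0.15, -0.16 and 0.30 and was not called (0.00 ± 0.07, 95% interval -0.15 to 0.14).

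The E-type cyclins, partners of CDK2 at the entry to S phase, also parted. Ccne1 had values of -0.24, -0.48 and -0.51, below the EtOH arrays (-0.03 to 0.02), and fell by 0.41 ± 0.05 (limma adjusted p = 2.43e-05). Ccne2 was 0.15, 0.82 and 1.00 against an EtOH range of -0.14 to 0.18, so the 24 h array lay within the controls and the later ones above them. It rose by 0.66 ± 0.14 (adjusted p = 0.00154).

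Of the kinases, Cdk6 had the clearest fall. Its values were -0.61, -1.13 and -0.51 at 24, 48 and 72 h, with EtOH arrays within 0.01 of their mean, and it fell by 0.75 ± 0.09 (limma adjusted p = 2.76e-05). Cdk2, the partner of E cyclins, was -0.31, -0.12 and -0.19 and fell by 0.21 ± 0.05 (adjusted p = 0.00541), all arrays lying below the lowest EtOH array at -0.10. Cdk4, the other partner of D cyclins, was not called, with a change of 0.08 ± 0.03 (95% interval 0.01 to 0.14, adjusted p = 0.0659). So the pair of kinases that serve D cyclins had different values late with ATRA, with Cdk6 lower and Cdk4 near its EtOH level; the difference between these genes was not tested.

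Among the inhibitors, Cdkn2c, which encodes p18-INK4c and blocks CDK4 and CDK6, was at 0.06, 0.70 and 0.89 and rose by 0.55 ± 0.12 (limma adjusted p = 0.00171). Its EtOH level of 4.46 is low in a table whose array medians lie at 6.50 to 6.68, and whether it was above background there was not tested. Cdkn1b, which encodes p27-KIP1, was at 0.02, -0.02 and -0.06 and was not called (-0.02 ± 0.05, interval -0.13 to 0.09), and its dimmer probe set had a mean difference of -0.24.

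Myc and Mycn encode factors that drive growth and cycle entry. Myc had values of -1.03, -0.46 and -0.69 at 24, 48 and 72 h of ATRA and -0.60 and -0.80 at 2 and 6 h, below the EtOH arrays (-0.05 to 0.04) at every time. It fell late by 0.73 ± 0.14 (limma adjusted p = 0.000989). Mycn was -1.37, -0.29 and -0.10, so its fall of 0.59 ± 0.18 (adjusted p = 0.0205) came mostly from the 24 h array. Without the 24 h arrays Mycn was at -0.20 (adjusted p = 0.0281). Myc was lowest at 24 h like Mycn, but stayed well below EtOH at 72 h, where Mycn was near it.

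**Figure D2:**
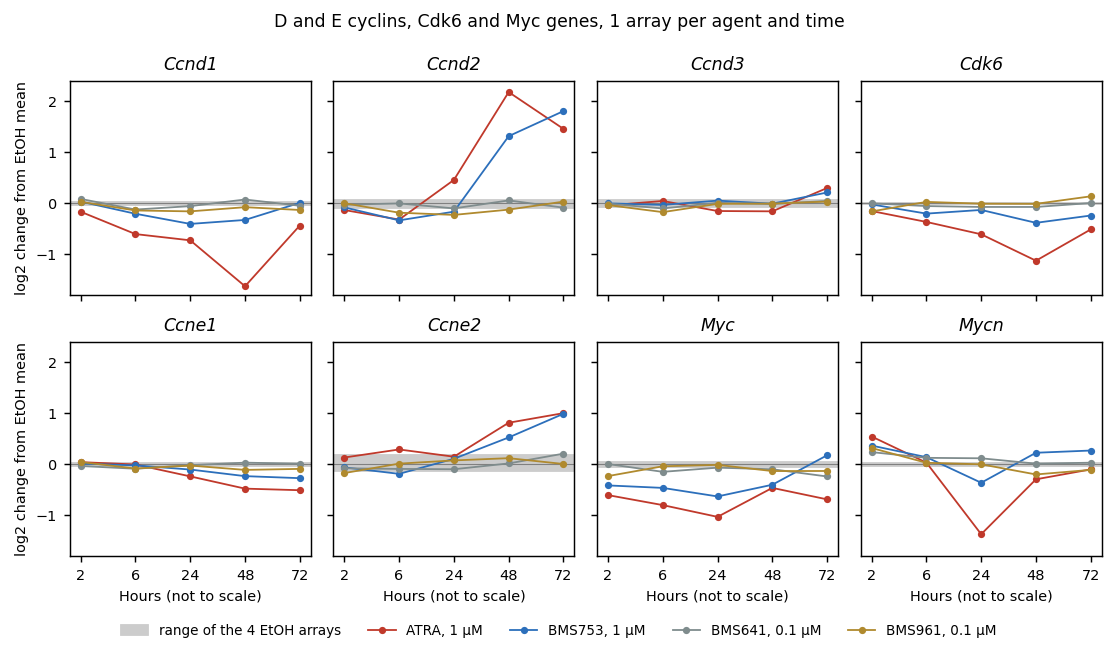
Courses of 8 G1 and Myc genes: the x axis gives hours of treatment (not to scale), the y axis the log2 change from the EtOH mean, each point is 1 array, and the grey band is the range of the 4 EtOH arrays. Ccnd2 is up at 48 and 72 h with ATRA (2.18 and 1.46) and BMS753 (1.32 and 1.81), and Ccnd1 is lowest at 48 h of ATRA (-1.63).

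The replication genes had small changes of both signs late with ATRA. The subunits of the MCM helicase, which unwinds DNA at origins, were uneven: Mcm3, Mcm5 and Mcm6 fell, while Mcm2 (-0.12 ± 0.06), Mcm4 (0.03 ± 0.04) and Mcm7 (0.01 ± 0.06) were not called. Without the 48 h arrays Mcm7 was at -0.11 and was called (adjusted p = 0.0456). Mcm3 had the largest fall of the group, at -0.27, -0.23 and -0.75 in the 24, 48 and 72 h arrays, all below the EtOH arrays (-0.02 to 0.01), with a change of -0.42 ± 0.08 (limma adjusted p = 0.0014). Its value without the 72 h arrays was -0.25 (adjusted p = 0.000877). Mcm5 was -0.15, -0.15 and -0.27 and fell by 0.19 ± 0.04 (adjusted p = 0.00308). Mcm6 was -0.19, 0.02 and -0.44, with its 48 h array among the EtOH arrays, and its fall of 0.20 ± 0.07 (adjusted p = 0.0299) was not called without the 72 h arrays (-0.08, adjusted p = 0.296) or without the 24 h arrays (-0.21, adjusted p = 0.0514). Leaving out EtOH array 3 or 4 also ended the Mcm6 call (adjusted p = 0.065 and 0.0593), and without the 48 h arrays its change was -0.31.

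The genes that make or handle nucleotides and the polymerase clamp leaned the other way. Rrm1 and Rrm2, the subunits of ribonucleotide reductase, rose by 0.25 ± 0.07 and 0.36 ± 0.13 (limma adjusted p = 0.00835 and 0.0379). Rrm1 was at -0.07, 0.34 and 0.48 and Rrm2 at -0.19, 0.76 and 0.52, so at 24 h both lay below the EtOH arrays and at 48 and 72 h above them. The Rrm1 call was lost without the 48 h arrays (0.21, adjusted p = 0.0765) and without the 72 h arrays (0.14, adjusted p = 0.132), and its value without the 24 h arrays was 0.41. For Rrm2 the value was 0.17 without 48 h (adjusted p = 0.30), 0.28 without 72 h (adjusted p = 0.124) and 0.64 without 24 h, and leaving out any EtOH array also ended the call (adjusted p 0.0521 to 0.0842). Pcna, the sliding clamp of DNA polymerase, was at 0.08, 0.18 and 0.23 and rose by 0.16 ± 0.04 (adjusted p = 0.00198). Its 2 probe sets gave nearly the same mean difference (0.16 and 0.17), and whether they read a near-identical copy was not tested. Tyms, thymidylate synthase, was not called (0.15 ± 0.06, adjusted p = 0.0667).

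Cdc6 and Cdt1 load the helicase onto origins. Cdc6 was not called late with ATRA (-0.13 ± 0.06). Cdt1 was at 0.24, 0.18 and -0.36, a late mean of 0.02 ± 0.12 over arrays on both sides of EtOH (-0.01 to 0.01). With BMS753 the Cdt1 values were 0.13, 0.32 and 0.53, so the agents' arrays lie on opposite sides of EtOH at 72 h.

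**Figure D3:**
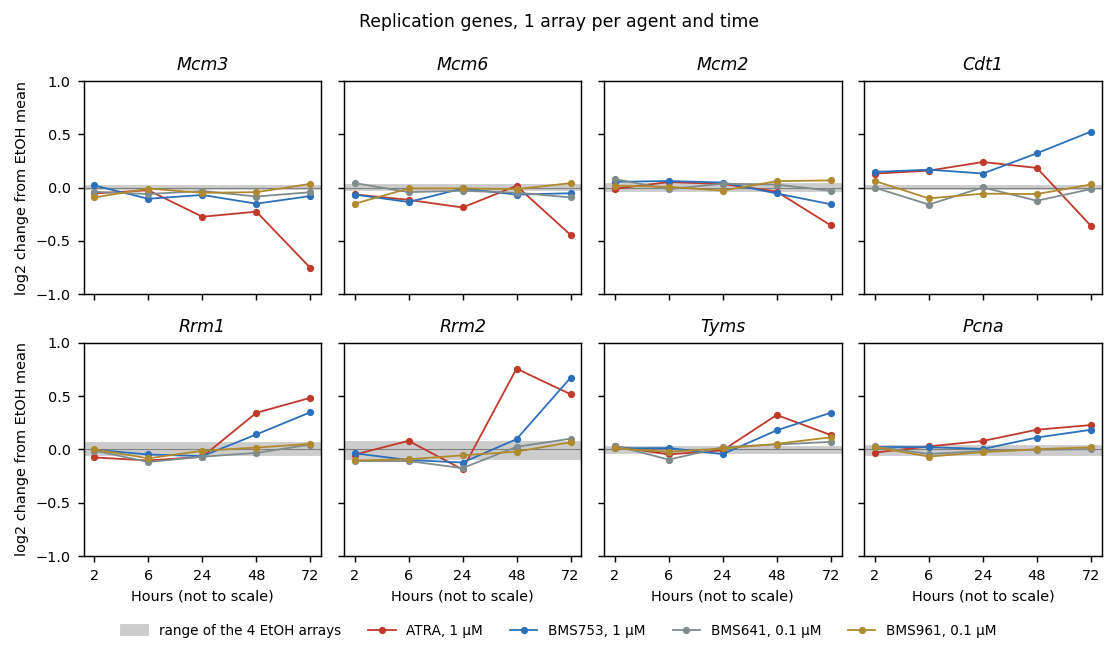
Courses of 8 replication genes: hours of treatment (not to scale) on the x axis, log2 change from the EtOH mean on the y axis, 1 array per point, and the range of the 4 EtOH arrays as a grey band. Mcm3 is lowest at 72 h of ATRA (-0.75), Rrm2 is up at 48 and 72 h (0.76 and 0.52), and Cdt1 at 72 h is -0.36 with ATRA and 0.53 with BMS753.

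Of the 13 measured mitosis members, Bub1 and Bub1b had the largest falls late with ATRA. Bub1, a checkpoint kinase at the kinetochore, was at -0.13, -0.68 and -0.88 at 24, 48 and 72 h, each below the lowest EtOH array (-0.04), and fell by 0.56 ± 0.11 (limma adjusted p = 0.00115). Bub1b, which encodes the checkpoint protein BubR1, was at -0.31, -0.18 and -0.66 and fell by 0.39 ± 0.07 (adjusted p = 0.000939), or by 0.25 without the 72 h arrays (adjusted p = 0.00781). Their promoters are the first pair printed above. Kif11, the motor that pushes spindle poles apart, was at -0.07, -0.19 and -0.58 and fell by 0.28 ± 0.07 (adjusted p = 0.00672), or by 0.13 without the 72 h arrays (adjusted p = 0.0405). In each of these genes the 72 h array was the lowest.

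The fall of Aurka and Birc5 rested on the 72 h array. Aurka, the centrosomal kinase Aurora A, was at -0.02, -0.27 and -0.54 and fell by 0.28 ± 0.07 (limma adjusted p = 0.0076), but was at -0.15 and not called without the 72 h arrays (adjusted p = 0.0625). Birc5, which encodes survivin of the chromosomal passenger complex, was at -0.10, -0.08 and -0.83 and fell by 0.34 ± 0.12 (adjusted p = 0.0364). Without the 72 h arrays Birc5 was at -0.09 (adjusted p = 0.261), and without EtOH array 1, 3 or 4 it was not called (adjusted p = 0.0637, 0.0889 and 0.059). Cdc20, which activates the anaphase-promoting complex, was at 0.50 at 6 h, 0.19 at 24 h, -0.27 at 48 h and -0.71 at 72 h of ATRA. Its late mean of -0.26 ± 0.14 was not called (adjusted p = 0.145), and its late arrays lie on both sides of EtOH (-0.07 to 0.07).

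Other mitosis genes had late means close to EtOH or slightly above it. Mki67, the proliferation antigen Ki-67, was at 0.21, 0.34 and 0.19, above every EtOH array (-0.04 to 0.06), and rose by 0.25 ± 0.05 (limma adjusted p = 0.00113). Ccna2, cyclin A2 of S phase and G2, was at 0.06, 0.05 and 0.17 and rose by 0.09 ± 0.03 (adjusted p = 0.0358); it was not called without the 72 h arrays (0.05, adjusted p = 0.208) or without any 1 EtOH array (adjusted p 0.0559 to 0.0771). Cdk1, the mitotic kinase, was at 0.00, 0.10 and -0.03 (0.02 ± 0.04, interval -0.06 to 0.10). Ccnb2, a B-type cyclin, was at 0.28, 0.11 and -0.39 (0.00 ± 0.09), so its late arrays lie on both sides of EtOH, and without the 72 h arrays its value was 0.19 (adjusted p = 0.00697). Top2a (-0.05 ± 0.06), a topoisomerase that untangles chromosomes, Aurkb (-0.06 ± 0.06), Aurora B, and Plk1 (-0.06 ± 0.04), the polo-like kinase, were not called. In the 72 h ATRA array they were at -0.23, -0.24 and -0.18, each below its lowest EtOH array (-0.04, -0.02 and -0.02). The median of the 13 mitosis genes in that array was -0.39, against 0.03 over all genes.

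**Figure D4:**
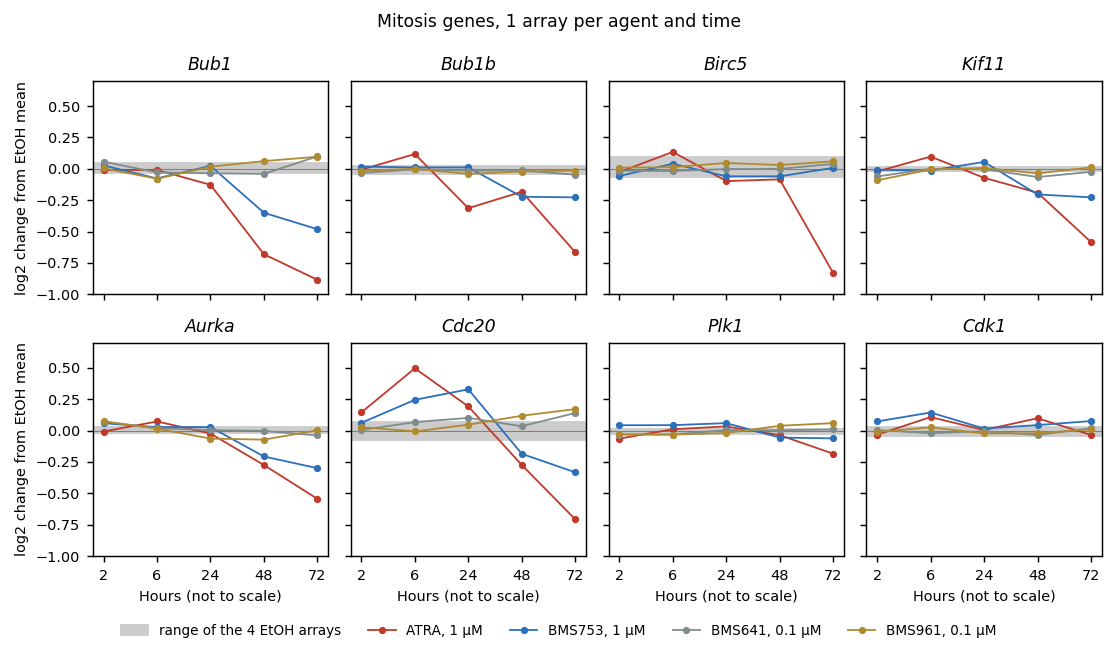
Courses of 8 mitosis genes: hours of treatment (not to scale) on the x axis, log2 change from the EtOH mean on the y axis, 1 array per point, and the range of the 4 EtOH arrays as a grey band. With ATRA, Bub1, Birc5 and Cdc20 reach -0.88, -0.83 and -0.71 at 72 h, while Cdk1 stays between -0.03 and 0.11.

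Counted array by array with ATRA, large differences were found in G1 and Myc genes from 2 h, and in replication and mitosis genes only from 48 h. Each group had its highest count at 72 h, as had all genes. At least 0.5 log2 from the EtOH mean, the 2 h ATRA array held 2 members (5.41%, against 0.863% of all genes), Myc (-0.60) and Mycn (0.55). The 6 h array held 2 (5.41%, against 3.06%), Myc (-0.80) and Ccnd1 (-0.60). The 24 h ATRA array held 4 members (10.8%, against 6.29% of all genes), all lower (2.81% of all genes were lower) and all in the G1 and Myc group: Ccnd1, Cdk6, Myc and Mycn. The 48 h array held 7 (18.9%, against 17.3%), of which 5 were G1 genes. The 72 h array held 14 (37.8%, against 24.9%), 4 higher and 10 lower (12.3% and 12.6% of all genes), and these were 6 mitosis genes, all lower, 6 G1 and Myc genes and 2 replication genes. With 1 array per time these are descriptions with no replicate check. With BMS753 the count was 1 member at 24 h (2.70%, against 2.11%), 2 at 48 h (5.41%, against 9.23%) and 4 at 72 h (10.8%, against 14.8%), all 4 higher (7.34% of all genes were higher).

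With late BMS753 3 of 37 members were called, 2 higher and 1 lower, which is 8.11%, against 13.5% of all genes (6.52% higher and 6.94% lower). Ccnd2 rose by 0.99 ± 0.27 (limma adjusted p = 0.0227), with arrays at -0.16, 1.32 and 1.81. Ccne2 rose by 0.54 ± 0.14 (adjusted p = 0.0155), with arrays at 0.11, 0.53 and 0.99, and Ccne1 fell by 0.20 ± 0.05 (adjusted p = 0.0119), with arrays at -0.10, -0.23 and -0.27. For Ccnd2 and Ccne2 the 24 h array was within or below the EtOH range and the later ones above it. All 3 calls were lost without the 48 h arrays (Ccnd2 0.82, Ccne2 0.55 and Ccne1 -0.19; adjusted p = 0.106, 0.0761 and 0.0792) and without the 72 h arrays (0.58, 0.32 and -0.17; adjusted p = 0.23, 0.14 and 0.0675), and Ccnd2 without EtOH array 1 (0.95, adjusted p = 0.0555). Fitted on the late BMS753 and EtOH arrays alone with no time term, Ccnd2, Ccne2 and Ccne1 were not called (limma adjusted p = 0.2, 0.157 and 0.0932). In the fit to all arrays with no time term, Ccnd2 and Ccne2 were not called (adjusted p = 0.0868 and 0.0652). Without the 24 h arrays 15 members were called, 9 higher and 6 lower (40.5%, against 26.9% of all genes), and Ccnd2 was at 1.56.

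Late with BMS753, 13 of 37 members had an unadjusted limma p under 0.05, as did 5245 of all 19938 genes. Cdk6 was at -0.13, -0.38 and -0.24 (-0.25 ± 0.09, limma adjusted p = 0.0799). Bub1 was at 0.02, -0.35 and -0.48 (-0.27 ± 0.11, adjusted p = 0.133). Cdt1 had a mean of 0.33 ± 0.12 (adjusted p = 0.0762), and Rrm2 was at -0.12, 0.10 and 0.67 (0.21 ± 0.13, adjusted p = 0.323). Myc was at -0.63, -0.40 and 0.18, below EtOH at 24 and 48 h and above it at 72 h (-0.28 ± 0.14, adjusted p = 0.215).

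**Figure D5:**
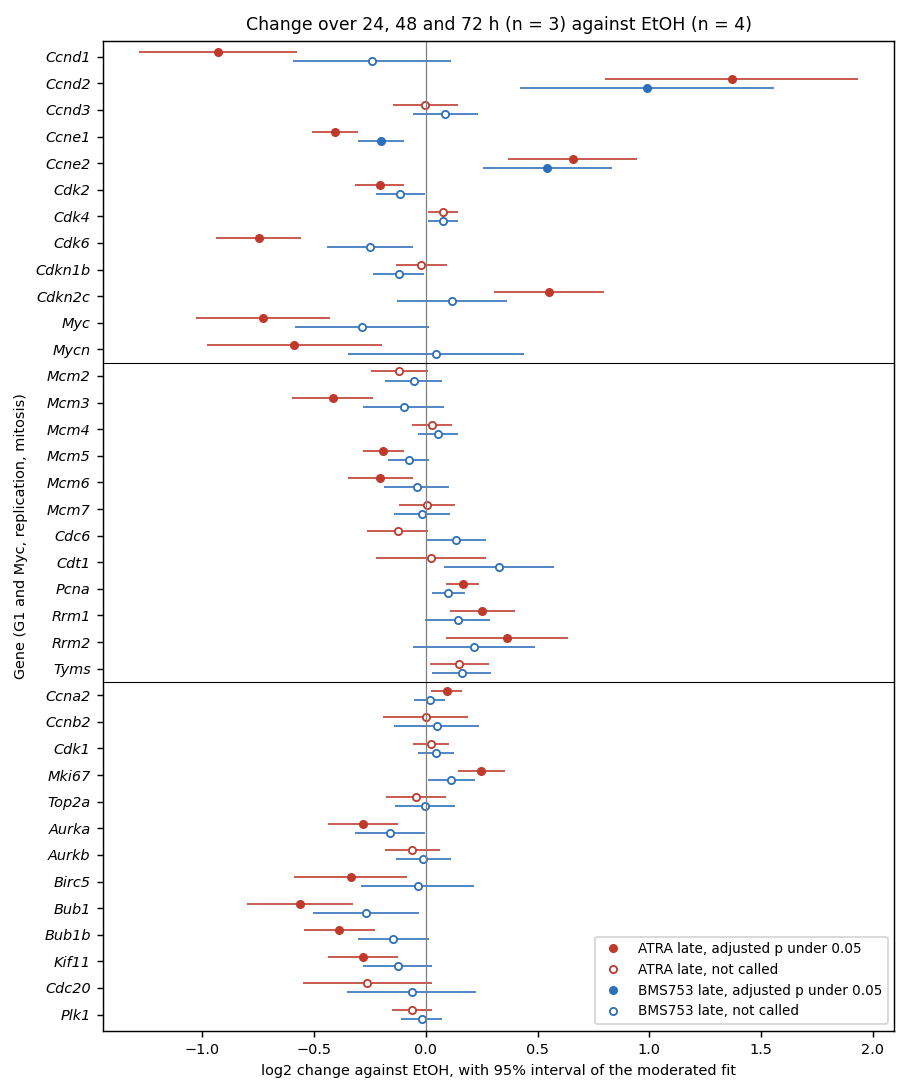
The late change of each of the 37 genes against EtOH (x axis, log2, with the 95% interval) for ATRA (red) and BMS753 (blue); filled points have a limma adjusted p under 0.05, n = 3 late arrays and 4 EtOH arrays, and both agents share the EtOH arrays. ATRA has 22 filled points and BMS753 has 3, and Ccnd2 lies farthest right in both (1.37 and 0.99).

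ATRA and BMS753 were given at the same dose and times, so they were compared directly. This was 1 of 4 comparisons of agents at a matched dose (2 pairs, early and late), each adjusted over all genes. Late, 6 of 37 members differed, 1 higher and 5 lower with ATRA (16.2%, against 10.4% of all genes, 4.44% higher and 5.93% lower). Lower with ATRA than with BMS753 were Ccnd1 (-0.69 ± 0.18, limma adjusted p = 0.0245), Cdk6 (-0.50 ± 0.10, adjusted p = 0.00777), Mcm3 (-0.32 ± 0.09, adjusted p = 0.038), Cdc6 (-0.26 ± 0.07, adjusted p = 0.0263) and Ccne1 (-0.21 ± 0.05, adjusted p = 0.0226). Cdkn2c was higher with ATRA (0.43 ± 0.12, adjusted p = 0.0375). At each of 24, 48 and 72 h the ATRA array was below the BMS753 array for Ccnd1, Cdk6, Mcm3, Cdc6 and Ccne1.

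The calls between ATRA and BMS753 depended on the spread shared by all agents and on single times. Fitted on the late arrays of ATRA and BMS753 alone with no time term, all 6 calls were lost. Each of the 6 then had a limma adjusted p of 0.657. Without the 48 h arrays Bub1b alone was called and all 6 of these calls were lost, with Ccnd1 at -0.38 (limma adjusted p = 0.0625, given likewise in the other parentheses here), Cdk6 at -0.38 (0.0521), Mcm3 at -0.44 (0.0532), Cdc6 at -0.31 (0.0798), Ccne1 at -0.19 (0.131) and Cdkn2c at 0.39 (0.183). Without the 72 h arrays 2 were called and Mcm3 (-0.14, 0.113), Cdc6 (-0.19, 0.107), Ccne1 (-0.19, 0.0788) and Cdkn2c (0.28, 0.22) were not. The Mcm3 call was also lost without any 1 EtOH array, with adjusted p of 0.05004 to 0.0526. Without the 24 h arrays 11 were called (29.7%, against 23.7% of all genes).

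For Ccnd2 and Ccne2, the pair of genes that rose with both agents, no difference between ATRA and BMS753 was found. The difference was 0.38 for Ccnd2 (95% interval -0.23 to 0.99, limma adjusted p = 0.391) and 0.11 for Ccne2 (interval -0.19 to 0.42, adjusted p = 0.628). Those intervals leave room for a difference in either direction. Mycn was lower with ATRA by -0.63 (interval -1.05 to -0.21) and Myc by -0.44 (interval -0.76 to -0.12), but neither was called (adjusted p = 0.0529 and 0.0709). Of the 13 mitosis genes 0 were called and 5 had an unadjusted p under 0.05, as did 5920 of all 19938 genes. Among these mitosis genes Bub1b had the smallest adjusted p (-0.24 ± 0.08, adjusted p = 0.0646), and Bub1 was at -0.29 (interval -0.55 to -0.04, adjusted p = 0.116).

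Early, at 2 and 6 h, no member was called with either 1 µM agent. With ATRA 0 of 37 were called, against 0.858% of all genes. An unadjusted p under 0.05 in limma was found for 2 members and for 1582 of all 19938 genes. With BMS753 0 were called, against 0.306%, and 3 members and 2081 of all genes had an unadjusted p under 0.05. Myc had the lowest early values, at -0.60 and -0.80 with ATRA (-0.70 ± 0.16, adjusted p = 0.0557) and -0.41 and -0.46 with BMS753 (-0.44 ± 0.16, adjusted p = 0.329), each below all EtOH arrays. Taking the spread from the EtOH arrays alone, 7 members passed with ATRA (18.9%, against 7.03% of all genes) and 4 with BMS753 (10.8%, against 4.55%), Myc among both (adjusted p = 9.57e-08 and 3.15e-05). Leaving out an EtOH array or a time gave Myc with ATRA an adjusted p of 0.109 to 0.982. Between ATRA and BMS753 early, 0 of 37 and 0 of 19938 genes were called (1 and 1923 at an unadjusted p under 0.05), with member differences of -0.30 to 0.34.

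Neither 0.1 µM agent moved a member past the test. BMS641 and BMS961 had 0 of 37 called early and late, and 0 at an unadjusted p under 0.05 in each of the 4 comparisons with EtOH. Over all genes, 0% were called with BMS641 early (468 genes at an unadjusted p under 0.05) or late (625) and with BMS961 early (582), and 0.00502% with BMS961 late. All 370 member values in these 10 arrays lay between -0.24 and 0.32, where the 4 EtOH arrays spanned -0.14 to 0.18. Ccnd2 ranged from -0.10 to 0.06 with BMS641 and from -0.23 to 0.03 with BMS961, and Myc from -0.24 to 0.01 and from -0.23 to -0.01. Bub1 ranged from -0.08 to 0.10 over both. The doses differ from those of ATRA and BMS753, so the values stand side by side and no test sets them against each other. Between BMS961 and BMS641, at the same dose, 0 of 37 members and 0% of all genes were called late or early. The unadjusted limma p was under 0.05 for 0 members. The 95% intervals lay within -0.67 to 0.54 late and -0.82 to 0.67 early, and the widest were those of Ccnd2. P-values and intervals here use the spread of the fit to all 24 arrays. The ATRA and BMS753 arrays, where Ccnd2 ran from -0.33 to 2.18, thus enter its intervals. They do not give the precision of the 0.1 µM arrays alone.

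The change from 24 to 72 h, averaged over the 4 agents, was called for 0 of 37 members and 0% of all genes. An unadjusted limma p under 0.05 was found for 19 members and 5597 genes. The largest mean rise was that of Ccnd2 (0.81) and the largest mean fall that of Cdc20 (-0.35), but the agents did not share them. At 24 and 72 h Ccnd2 was at 0.46 and 1.46 with ATRA and -0.16 and 1.81 with BMS753. With BMS641 it was at -0.10 and -0.09, and with BMS961 at -0.23 and 0.03. Cdc20 was at 0.19 and -0.71 with ATRA and 0.33 and -0.33 with BMS753. With BMS641 Cdc20 was at 0.10 and 0.14, and with BMS961 at 0.05 and 0.17. Among the 13292 brightest genes alone, 4 members were called (11.1%, against 11.6% of those genes), all higher: Ccnd2, Ccne2, Rrm1 and Rrm2 (limma adjusted p 0.0418 to 0.0489).

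Beyond the members, 72 other genes of the pathway had a value, of 74 listed. Late with ATRA 31 were called, 16 higher and 15 lower (43.1%, against 36.9% of all genes). Of 19 partners of Rb, E2F and Myc, 9 rose, 3 fell and 7 were not called. Mxd4, which competes with MYC for its partner MAX, rose by 1.03 ± 0.08 with late arrays at 0.79, 1.23 and 1.06 (limma adjusted p = 5.96e-07). Rb1, the retinoblastoma gene, rose by 0.82 ± 0.06 with arrays at 0.63, 0.97 and 0.85 (adjusted p = 6.03e-07). The repressive E2F factor E2f7 rose by 0.48 ± 0.10 (adjusted p = 0.00208), or by 0.26 without the 72 h arrays. Rbl2, the Rb relative p130, rose by 0.45 ± 0.14 (adjusted p = 0.0181), but was at 0.20 and not called without the 72 h arrays (adjusted p = 0.259) or at 0.38 without EtOH array 2 (adjusted p = 0.0534).

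Of 20 further replication genes 0 rose and 9 fell with late ATRA (45%, where 36.9% of all genes were called and 19% were lower), while the 12 replication members had 3 higher and 3 lower. Orc1, of the origin recognition complex, was at -0.19, -0.80 and -1.08 and fell by 0.69 ± 0.13 (limma adjusted p = 0.000777). Mcm10, which helps start the helicase, was at -0.48, -0.52 and -0.65 and fell by 0.55 ± 0.05 (adjusted p = 3.52e-06). Cdc7 and its activator Dbf4, the kinase that fires origins, fell by 0.41 ± 0.08 and 0.49 ± 0.08 (adjusted p = 0.00119 and 0.000269), and Gmnn, the inhibitor of Cdt1, by 0.47 ± 0.09 (adjusted p = 0.000744), or by 0.31 without the 72 h arrays. Of 20 further mitosis genes 3 rose and 0 fell (15%).

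Of 13 CDK inhibitors and regulators 4 rose and 3 fell late with ATRA (53.8%). Of all genes 36.9% were called, 17.9% higher and 19% lower. Cdkn1a, which encodes p21, had no probe set of its own here. Cdkn1c (0.05 ± 0.07), Cdkn2a (0.07 ± 0.06) and Cdkn2b (0.20 ± 0.10) were not called, and Cdkn2d, which encodes p19-INK4d, fell by 0.27 ± 0.08 (limma adjusted p = 0.0156). The Cdkn2d call was lost without the 48 h arrays (-0.18, adjusted p = 0.0838) or EtOH array 3 (-0.23, adjusted p = 0.05002). Skp2, of the ligase that degrades p27, rose by 0.46 ± 0.13 (adjusted p = 0.0103), with 0.39 without the 48 h arrays (adjusted p = 0.0799), 0.28 without the 72 h arrays and 0.71 without the 24 h arrays. Cdkn2c was thus the inhibitor with the largest rise among those measured.

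With late BMS753, 10 of the 72 were called, 5 each way (13.9%, against 13.5% of all genes). Between ATRA and BMS753 late, 14 differed, 5 higher and 9 lower with ATRA (19.4%, against 10.4%), and all 7 called replication genes among them were lower. Mcm10 differed by -0.41 ± 0.05 (limma adjusted p = 0.000919), Cdc7 by -0.49 ± 0.09 (adjusted p = 0.0049), Rb1 by 0.51 ± 0.07 (adjusted p = 0.000771) and Mxd4 by 0.76 ± 0.08 (adjusted p = 0.000347). Fitted on the late arrays of ATRA and BMS753 alone with no time term, Mcm10, Cdc7, Rb1 and Mxd4 were not called (limma adjusted p = 0.657 for each). Without the 48 h arrays 3 of the 72 differed, and without the 72 h arrays 6. The Cdc7 call was lost without 48 h (-0.51, adjusted p = 0.0519).

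Markers of cell identity moved in the same arrays. The EtOH arrays carried the embryonal carcinoma genes, such as Pou5f1 (log2 level 12.9), apart from Zfp42, which was low (4.83). Late with ATRA, where 36.9% of all genes were called, 8 of 10 of these markers fell, and their summed log2 level went from 104 to 105 in EtOH to 68.8 to 97.9. Of the other lists, 4 of 10 neuron markers rose (summed level 77.4 to 78.1 in EtOH and 76.9 to 94.6 late), 5 of 8 endoderm markers rose (50.9 to 51.4 and 55.5 to 60.8), and of 8 fibroblast and smooth muscle markers 6 rose and 1 fell (56.7 to 57.3 and 57.3 to 70.6). Afp and Ttr, of endoderm, stayed low (EtOH levels 5.47 and 4.55) and were not called. Of 7 p53 response genes 1 rose and 2 fell (42.9%). With late BMS753 the embryonal carcinoma sum was 82.6 to 105, the neuron sum 77.3 to 78.5, the endoderm sum 52.4 to 58.0 and the fibroblast and smooth muscle sum 57.3 to 63.8. The part of these cell type changes in the cell cycle values was not tested.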

How the data were processed

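Per the submitters' processing notes, the deposited log2 values came from Affymetrix Expression Console 1.1; background correction, summarization and normalization are not given in the sources used here. Of 35556 probe sets, 21789 carried a single gene symbol, 1621 carried several and 12146 were unnamed. Values ran from 2.859 to 14.303, with array medians of 6.502 to 6.677. The brightest probe set stood for a gene, giving 19938 genes, and 3 members had more than 1. The number of arrays limits the precision.

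limma 3.58.1 in R 4.3.3 (lmFit, eBayes with trend) was fitted to all 24 arrays, with separate means for EtOH and for every agent early and late, plus time terms common to the agents (12 residual degrees of freedom). Tests are two-sided and adjusted by Benjamini-Hochberg over all genes, in 13 comparisons. The fit was tested on simulated data, with the same spread in all arrays for a gene and a constant shift in the late ATRA arrays. Such data could not test the shared spread where agents differ in their change over time. No sample was dropped or imputed.

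The members and lists were chosen with earlier results of these data known. Named genes are any member, the 5 largest called rises and falls of the pathway list late with ATRA, the CDK inhibitors and the marker lists. Alternatives changed the spread (residuals of EtOH arrays only, or a fit of just the compared groups), dropped the time terms, the dimmest 33.3% of genes, single EtOH arrays or single times, averaged a gene's probe sets, or quantile-normalized again. Those for the pathway list and markers were chosen after seeing the data. F9 cells are not analysed here.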

Additional observations from a re-analysis of the deposited data

Results flagged for a closer look

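In 2 of 37 members 1 EtOH array stood apart from the other 3 by Dixon's criterion, which chance alone meets in about 5% of groups. Mcm5 had EtOH array 2 at 0.0252 above the EtOH mean. Ccna2 had EtOH array 1 at -0.0155. Both distances are small beside the changes of other members, and without these arrays the late ATRA call of Mcm5 remained while that of Ccna2 was lost (limma adjusted p = 0.0771 without EtOH array 1).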

How the results depend on the processing

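No paired analysis was possible because the treated arrays carry no replicate numbers. The counts below are of members or of pathway genes. The share of all genes called moved with the setting too, as given above where both stand side by side. A count here is thus no result about the members by itself. Late with ATRA, 5 members were called when only the groups compared were fitted, and leaving out an EtOH array or a time gave 18 to 26. Late with BMS753, 1 was called with no time term, 19 with the EtOH spread (residuals of the EtOH arrays), 0 with only the groups compared, and 0 to 15 with an array or time left out. Between ATRA and BMS753 late, these were 2 after another quantile normalization, 21 with the EtOH spread, 0 with only the groups compared and 1 to 11 with an array or time left out. Early, ATRA gave 7 with the EtOH spread, 4 with only the groups compared and 1 without the dimmest genes, BMS753 gave 4 and 3 under the first pair, and ATRA against BMS753 gave 2 with the EtOH spread. From 24 to 72 h, 4 were called without the dimmest genes and 23 with the EtOH spread. For the pathway list, only the groups compared gave 8, 0 and 0 late (ATRA, BMS753, and between them). The EtOH spread gave 28 with BMS753 and 35 between agents, and no time term gave 5 with BMS753. Leaving out an array or time gave 23 to 36, 4 to 24 and 3 to 25. Late with ATRA, changes of sign past the threshold were Mcm7 and Ccng1 without the 48 h arrays (-0.11 and 0.30) and Ccnb2 and Cenpa without the 72 h arrays (0.19 and 0.18); with a time left out these ranged from -0.11 to 0.067, -0.28 to 0.30, -0.14 to 0.19 and -0.26 to 0.18. The cause was not tested. The members called under every alternative late with ATRA were Ccnd2, Ccne1, Cdk6, Myc and Mki67. With 1 array per agent and time, changes at a single time have no replicate check, and the arrays' spread within a phase includes their change over time.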

Other observations

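At 2 h, Mycn lay above the EtOH arrays (-0.03 to 0.03) in all 4 agents, at 0.55 with ATRA, 0.37 with BMS753, 0.24 with BMS641 and 0.32 with BMS961. At 24 h it was at -1.37 with ATRA and -0.36 with BMS753, and at 0.12 and 0.00 with the 0.1 µM agents. The pattern was picked out after its values were seen, rests on 1 array per agent and was not tested; the EtOH arrays have no time label, so a change at 2 h in all agents cannot be told apart from one of time in culture or handling.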
